A study of Mus musculus with 10 samples.

Results

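Liver sinusoids are lined by a specialised endothelium that is fenestrated, lacks an organised basement membrane and clears waste macromolecules from the blood through scavenger and Fc receptors. In injured livers this endothelium can lose its scavenger genes and take on genes of continuous vessels, a change known as capillarization. A set of 10 genes was examined, chosen by symbol among the 55421 gene identifiers of the count table. The set held Stab1, Stab2, Lyve1, Clec4g, Fcgr2b, Oit3 and Gpr182, which are typical of sinusoidal endothelium, and Pecam1, Kdr and Vwf, which belong to endothelium more widely. All 10 were found, and all 10 passed the count filter that left 22449 genes tested.

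Poly(A) RNA was sequenced from whole livers of 10 male C57BL/6 mice. Histone H3.3 is a variant of histone H3 encoded by H3f3a and H3f3b. The H3.3 KO group held 4 mice with floxed alleles (H3f3a fl/fl H3f3b fl/fl) that were given AAV8 Tbg-Cre, an adeno-associated virus that carries Cre recombinase. The WT Cre controls were 3 wildtype mice given the same virus, and the MCS controls were 3 floxed mice given AAV8 Tbg-MCS, a vector with no Cre. Every animal was injected retro-orbitally at 6 months of age and its liver was taken 3 weeks later. Tbg is a hepatocyte promoter, so Cre was directed to hepatocytes and the endothelial genes were read in cells that the vector was not designed to edit. In whole liver RNA, changes in endothelial cell number, in RNA per endothelial cell and in the RNA of other cells cannot be told apart. The genotype field names HIRA for the floxed animals, whereas titles and design text name the H3.3 genes. H3f3a stood at 25.7% to 30.6% of its control mean in the 4 KO livers and H3f3b at 24.9% to 35.4%, while Hira had a log2 fold change of -0.14 (edgeR quasi-likelihood test, adjusted p = 0.477).

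Total counts ran from 14998426 in KO 1 to 26096141 in MCS control 1. Levels are given as CPM, counts scaled to a common library size after TMM adjustment, and n is the number of livers. Each of the 10 genes had between 114 and 2074 counts in every liver, so none was near the detection limit. The liver label was met by its hepatocyte markers, of which all 8 were detected, Alb at a mean of 96900 CPM in the controls. Libraries that stood apart were KO 4, which was highest of the 10 livers for all 10 endothelial genes, KO 1, which was the shallowest, and MCS control 3, which was highest of the 6 controls for macrophage markers.

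Few of these genes passed the test in H3.3 KO livers, and none fell. Against the 6 controls, 1 of 10 genes rose (Fcgr2b, adjusted p under 0.05, edgeR quasi-likelihood test adjusted over all genes tested) and 0 fell, whereas 19.7% of all genes tested rose and 16.6% fell. None of the 10 also passed a log2 fold change of 1, which 12.9% of all genes did in the upward direction. Without adjustment, 6 of 10 had a p under 0.05. The share of all genes at that threshold was not computed, and it cannot be below the adjusted shares. All 10 log2 fold changes were above 0, from 0.07 for Oit3 to 0.68 for Lyve1, with a median of 0.32 beside 0.00 over all genes. The ranges of KO and control livers overlapped for all 10 genes, and 12.5% of all genes tested had every KO liver above every control. The plot of CPM by liver shows that the spread came from the ends of the KO group, KO 1 within the controls and KO 4 above them.

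**Figure D1:**
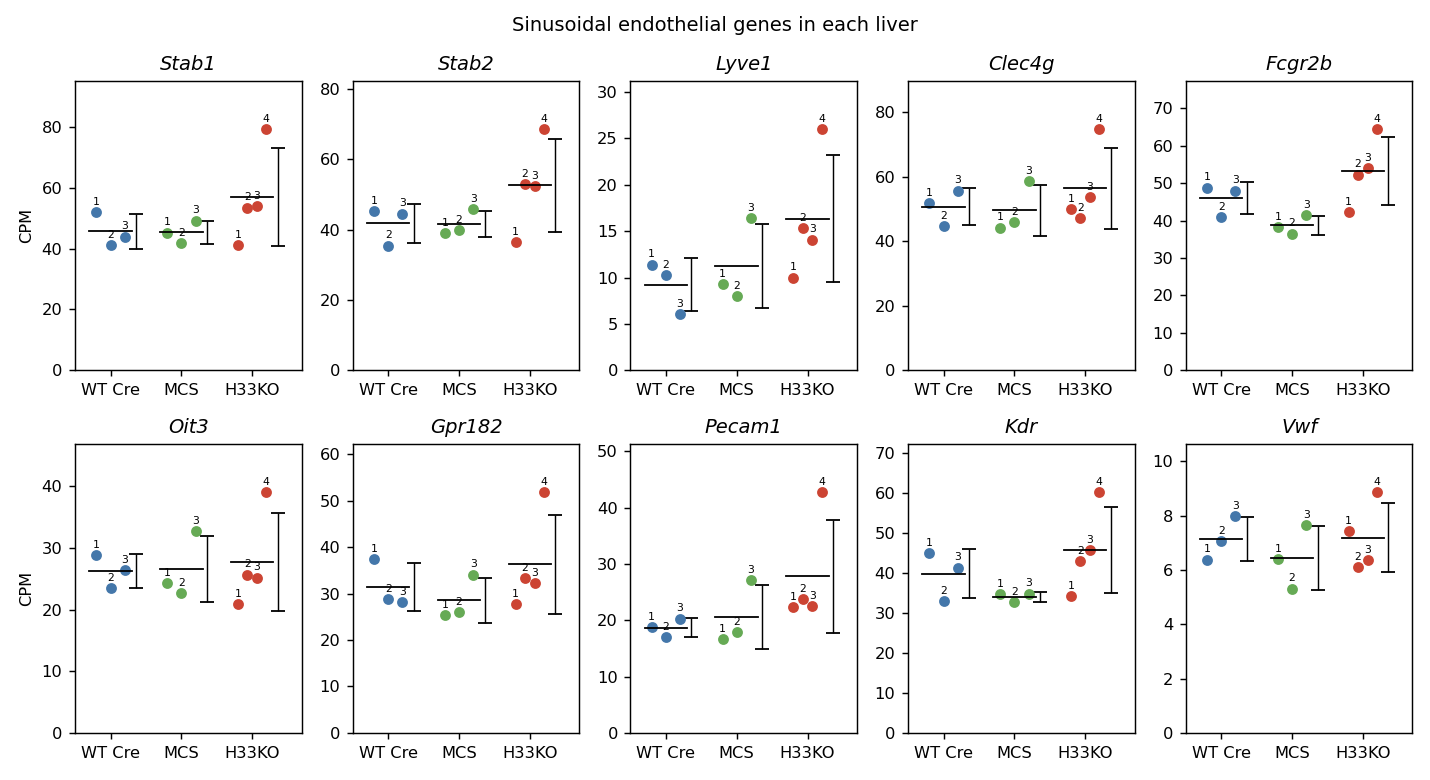
CPM of each of the 10 genes in every liver, one panel per gene, with each axis starting at 0. Points are livers with their replicate numbers, horizontal lines are group means, and error bars are SD (n = 3 WT Cre, 3 MCS and 4 H33KO). KO 4 is the highest point in all 10 panels, and KO 1 lies within the control points for 9 of 10 genes.

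The stabilins Stab1 and Stab2 are scavenger receptors that take up oxidised lipoproteins, matrix fragments and, for Stab2, hyaluronan. Kupffer cells and macrophages can also express Stab1. Stab1 (chr14:31139013-31168641, minus strand, build mm10 with GENCODE M21) was at 52.1, 41.1 and 44.0 CPM in WT Cre controls 1 to 3. The MCS controls had 45.3, 41.7 and 49.2 CPM, and KO livers 1 to 4 had 41.2, 53.5, 54.0 and 79.3 CPM. KO 2 to 4 lay above all controls and KO 1 near the bottom of their range. Control livers averaged 45.6 CPM with an SD of 4.34 (n = 6), and KO livers 57.0 CPM with an SD of 16.0 (n = 4). This log2 fold change of 0.32 did not pass (adjusted p = 0.105, edgeR, with an SE of 0.148).

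Stab2 (chr10:86841198-87008025, minus strand) had the same arrangement of livers. It was at 45.3, 35.5 and 44.6 CPM in the WT Cre controls, at 39.0, 39.9 and 45.9 CPM in the MCS controls, and at 36.4, 53.0, 52.4 and 68.6 CPM in KO 1 to 4. Again KO 1 sat low among the controls and the other three KO livers sat above all of them. At a log2 fold change of 0.34 and an SE of 0.144 it did not pass (adjusted p = 0.0842, edgeR). Stab1 overlaps Nt5dc2 on the opposite strand, and Stab2 overlaps 5 predicted genes there. The kit was directional, but the strand setting of the counting is not given in the sources used here.

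Fcgr2b (chr1:170958617-170976547, minus strand), the inhibitory Fc receptor with which sinusoidal endothelium removes small immune complexes, was the gene that rose. It was at 48.8, 41.0 and 48.0 CPM in the WT Cre controls and at 38.3, 36.5 and 41.5 CPM in the MCS controls. In KO 1 to 4 it was at 42.2, 52.3, 54.0 and 64.4 CPM. KO 2 to 4 exceeded all controls, whereas KO 1 was below 2 of the WT Cre controls. Control livers averaged 42.3 CPM (SD 5.01, n = 6) and KO livers 53.2 CPM (SD 9.10, n = 4). The log2 fold change of 0.33 had an SE of 0.122 and an adjusted p of 0.0483 in edgeR. The call stood near its threshold and held in 10 of 19 alternative settings, in which the adjusted p ran from 0.00762 to 0.192.

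Fcgr2b is also expressed by B cells and macrophages, and part of its sequence is shared with Fcgr3, an activating Fc receptor of macrophages. Fcgr3 averaged 6.96 CPM in controls (SD 4.26, n = 6) and 22.8 CPM in KO (SD 10.8, n = 4), and its rise of 1.73 on the log2 scale passed edgeR at an adjusted p of 0.00902. Of the 50-base words in the Fcgr2b coding sequence (1020 bases, GENCODE M21), 17.1% also occur in Fcgr3 coding sequence, whereas 0 of 971 occur in that of Fcgr4 or of Fcgr1. The longest identical run is 129 bases, coding positions 278 to 406 of Fcgr2b. The window of 200 coding bases around that run is shown for both genes because reads from it could be assigned to either. Capitals mark the 5 positions at which they differ.
Fcgr2b: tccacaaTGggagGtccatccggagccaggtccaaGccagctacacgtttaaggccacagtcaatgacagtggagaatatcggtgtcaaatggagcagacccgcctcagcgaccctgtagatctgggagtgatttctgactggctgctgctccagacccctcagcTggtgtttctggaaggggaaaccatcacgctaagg
Fcgr3: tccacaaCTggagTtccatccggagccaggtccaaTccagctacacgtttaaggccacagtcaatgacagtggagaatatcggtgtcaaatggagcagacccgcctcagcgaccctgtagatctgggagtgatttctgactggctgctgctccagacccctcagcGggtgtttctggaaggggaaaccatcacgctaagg
How reads with several matches were counted is not given in the sources used here, and the part of Fcgr3 reads in the Fcgr2b counts was not tested. Over all transcripts and both strands, 2.92% of Fcgr2b words occurred in Fcgr3, and 6.95% occurred in some other gene, Fcgr3 included. For the other 9 genes the share that occurred in some other gene was between 0.0% and 1.96%.

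Lyve1 (chr7:110850607-110863239, minus strand), a hyaluronan receptor of sinusoidal and lymphatic endothelium and of some macrophages, had the largest and least precise difference of the set. It was at 11.4, 10.3 and 6.03 CPM in the WT Cre controls and at 9.28, 7.99 and 16.4 CPM in the MCS controls. In KO 1 to 4 it was at 10.0, 15.3, 14.1 and 26.0 CPM. MCS control 3 was above KO 1, KO 2 and KO 3, and only KO 4 exceeded all controls. The log2 fold change of 0.68 had a 95% confidence interval of 0.04 to 1.33 and did not pass edgeR (adjusted p = 0.0905, with an SE of 0.292). It passed in 3 of 19 alternative settings, with the lowest adjusted p (0.0252, edgeR) when MCS control 3 was left out. Without KO 4 it was at 0.37 (edgeR adjusted p = 0.317).

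Clec4g and Oit3 were close to the controls. Clec4g (chr8:3707064-3720651, minus strand), a C-type lectin of sinusoidal endothelium, was at 51.9, 44.6 and 55.7 CPM in the WT Cre controls and at 44.2, 46.0 and 58.7 CPM in the MCS controls. KO 1 to 4 had 50.0, 47.2, 53.6 and 74.7 CPM, so that only KO 4 left the control range. Its log2 fold change was 0.17, with a 95% confidence interval of -0.12 to 0.46 (edgeR adjusted p = 0.363).

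Oit3 (chr10:59422958-59441778, minus strand), a zona pellucida domain protein of these cells, was at 28.9, 23.5 and 26.4 CPM in the WT Cre controls and at 24.3, 22.7 and 32.7 CPM in the MCS controls. KO 1 to 4 had 20.9, 25.7, 25.2 and 39.1 CPM. KO 1 was below every control and KO 4 above every control, which made Oit3 the one gene of the set with KO livers outside the control range on both sides. KO and controls differed by a log2 fold change of 0.07, with a 95% confidence interval of -0.27 to 0.42 (edgeR, adjusted p = 0.764).

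Gpr182 (chr10:127747276-127751732, minus strand), an atypical chemokine receptor, was at 37.4, 28.8 and 28.1 CPM in the WT Cre controls. It was at 25.4, 26.1 and 34.1 CPM in the MCS controls and at 27.7, 33.4, 32.2 and 51.9 CPM in KO 1 to 4. KO 1 to 3 stayed within the control range. With a log2 fold change of 0.28 and an SE of 0.167, it did not pass (adjusted p = 0.221, edgeR). Clec4g, Gpr182 and Fcgr2b each overlap a gene on the other strand, which is Gm16553, Zbtb39 and Gm38204, respectively.

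Pecam1 (chr11:106654217-106750628, minus strand), a junctional adhesion molecule of all endothelium that platelets and leukocytes also carry, was at 18.8, 17.0 and 20.3 CPM in the WT Cre controls. It was at 16.7, 17.9 and 27.1 CPM in the MCS controls and at 22.3, 23.7, 22.5 and 42.8 CPM in KO 1 to 4. All KO livers exceeded the controls other than MCS control 3, which stood above KO 1 to 3. Its log2 fold change was 0.50 with an SE of 0.198 (adjusted p = 0.0652, edgeR). It passed in 5 of 19 alternative settings, among them that without MCS control 3. Without KO 4 it was at 0.22 (edgeR adjusted p = 0.273).

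Kdr (chr5:75932827-75978458, minus strand) encodes VEGFR2, the main signalling receptor for VEGF-A. It was at 44.9, 33 and 41.3 CPM in the WT Cre controls, at 34.6, 32.6 and 34.8 CPM in the MCS controls, and at 34.2, 42.9, 45.6 and 60.2 CPM in KO 1 to 4. KO 3 and KO 4 were above all controls, KO 3 by a small margin. Kdr differed by 0.31 on the log2 scale, with an SE of 0.145 and an adjusted p of 0.110 (edgeR).

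Vwf (chr6:125546774-125686679, plus strand), the clotting factor stored by endothelium of larger vessels and by megakaryocytes, was the least abundant gene of the set. It was at 6.38, 7.07 and 7.98 CPM in the WT Cre controls, at 6.39, 5.31 and 7.66 CPM in the MCS controls, and at 7.43, 6.09, 6.36 and 8.87 CPM in KO 1 to 4. Its order among KO livers differed from the other genes, with KO 1 the second highest. Its KO and control livers differed by a log2 fold change of 0.08, with a 95% confidence interval of -0.24 to 0.41 (edgeR adjusted p = 0.716).

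Levels between genes were compared per length, as control CPM per kilobase of merged exons. Clec4g was highest at 20.4 ± 2.50 (SD, n = 6) and did not overlap Oit3, the next at 9.48 ± 1.38. Oit3, Gpr182 at 7.58 ± 1.21 and Fcgr2b at 7.31 ± 0.865 overlapped their neighbours in this order. Below them, Stab2 at 4.76 ± 0.479, Stab1 at 4.43 ± 0.422, Kdr at 4.08 ± 0.557, Lyve1 at 3.50 ± 1.21 and Pecam1 at 3.16 ± 0.622 overlapped one with the next. Vwf stood apart at 0.423 ± 0.0607. In KO livers the means were 22.9 for Clec4g, 9.94 for Oit3 and 0.447 for Vwf on the same scale.

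Summed over the 10 genes, control livers had 277 to 348 CPM, with a mean of 310.0 CPM (SD 33.2, n = 6). KO 1 to 4 had 292, 353, 360 and 516 CPM. KO 1 was within the control range, KO 2 and KO 3 were just above its upper end, and KO 4 was far above it. Of the 10 genes, 8 were below their control mean in KO 1, 3 in KO 2, 2 in KO 3 and 0 in KO 4. The median log2 difference from the control mean was -0.05 in KO 1, 0.23 in both KO 2 and KO 3 and 0.72 in KO 4. In KO 4 every gene was raised, from 0.39 to 1.40 on the log2 scale. Among the controls the median ran from -0.18 in MCS control 2 to 0.19 in MCS control 3.

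Most of the difference rested on KO 4. Without that liver, 0 of 10 genes were called and 0 had an unadjusted p under 0.05 (edgeR), while 17.2% of all genes tested rose. The median log2 fold change of the 10 genes was 0.13, beside 0.32 with all livers. Fcgr2b was then at 0.22 (adjusted p = 0.169) and Lyve1 at 0.37 (adjusted p = 0.317). Oit3 and Vwf turned to -0.14 and -0.04. Without KO 1, 6 of 10 were called, namely Fcgr2b, Kdr, Lyve1, Pecam1, Stab1 and Stab2, all higher, beside 22.0% of all genes tested.

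KO was also compared with each kind of control, as the WT Cre animals received the KO virus and the MCS animals carried the KO alleles. The 2 kinds of control differ in both virus and alleles, and no wildtype mice were given MCS. Effects of vector and alleles therefore cannot be told apart between them. Against the WT Cre controls, 0 of 10 genes were called by edgeR, whereas 15.3% of all genes tested rose. There, 2 genes (Lyve1 and Pecam1) had an unadjusted p under 0.05, for which no share of all genes was computed. The log2 fold changes ran from 0.01 for Vwf to 0.83 for Lyve1, with a median of 0.21. Against the MCS controls, 1 of 10 rose beside 17.3% of all genes. This was again Fcgr2b, at a log2 fold change of 0.46 with an SE of 0.135 (adjusted p = 0.0213), beside 0.21 against the WT Cre controls (adjusted p = 0.260). Both comparisons use the same KO livers. Tested directly, the WT Cre and MCS controls differed in 0 of 10 genes (edgeR, also 0 at an unadjusted p under 0.05) and in 0.927% of all genes. The difference in Fcgr2b between them was 0.24 (edgeR adjusted p = 0.603). The plot of log2 fold changes shows the 4 comparisons side by side.

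**Figure D2:**
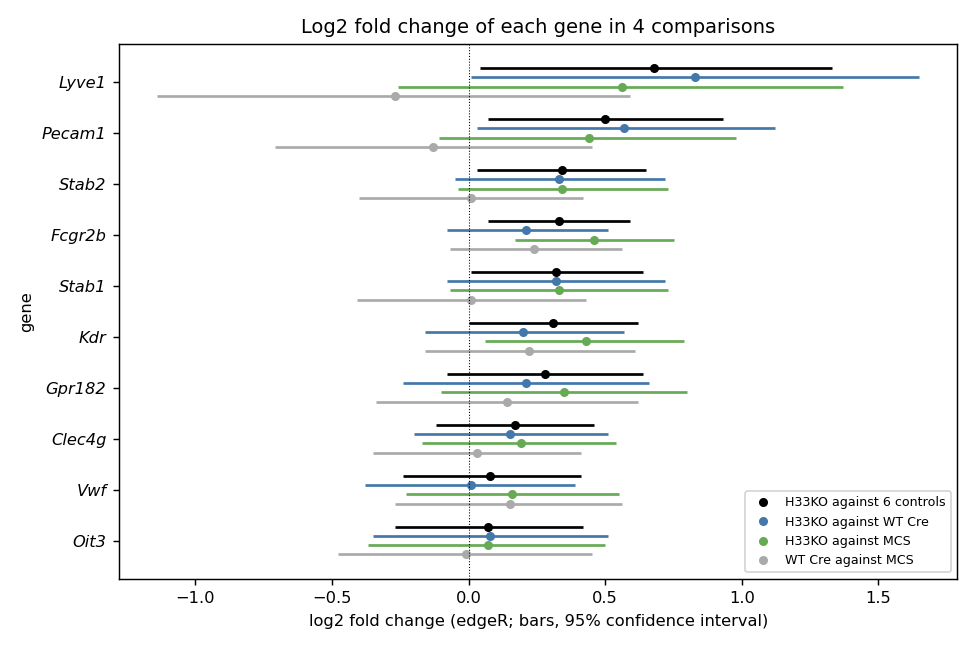
Log2 fold change (x axis) of each of the 10 genes (y axis) in 4 comparisons, with 95% confidence intervals from edgeR as bars. All 10 points for H33KO against the 6 controls lie above 0, between 0.07 and 0.68, while WT Cre against MCS lies between -0.27 and 0.24.

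Scaling bore on the count. With library size alone, without TMM factors, the median over all genes moved by 0.18 on the log2 scale, 25.1% of all genes rose, and 72.2% of calls were upward in place of 54.3%. In that setting 6 of 10 genes were called. Relative to the median of all genes, their log2 fold changes ran from 0.09 (Oit3 and Vwf) to 0.72 (Lyve1), near those with TMM.

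Of 10 further genes of sinusoidal endothelium, 4 rose, 0 fell and 6 did not pass, with a median log2 fold change of 0.34. In the same fit 19.7% of all genes tested rose and 16.6% fell, which also applies to the lists that follow. Clec1b averaged 7.74 CPM in controls (SD 1.69, n = 6) and 15.4 CPM in KO (SD 1.70, n = 4), with every KO liver above every control. It rose by 0.99 on the log2 scale, at an adjusted p of 3.22e-04 in edgeR. Adam23 rose by 0.92, Maf by 0.72 and Mrc1 by 0.53, at adjusted p-values of 0.00411, 0.00316 and 0.0186. Clec1b, Mrc1 and Maf are also expressed by Kupffer cells or other macrophages. The 6 genes that did not pass were at 0.03 to 0.36.

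Of 8 angiocrine factors, the secreted signals by which sinusoidal endothelium acts on hepatocytes, 1 rose and 0 fell. Over all genes tested, 19.7% rose and 16.6% fell. Hgf, the hepatocyte growth factor that stellate cells also secrete, averaged 3.08 CPM in controls (SD 0.717, n = 6) and 7.47 CPM in KO (SD 2.55, n = 4) and rose by a log2 fold change of 1.29 (adjusted p = 8.67e-04, edgeR). Bmp2, an inducer of hepcidin, was at 0.31 (edgeR adjusted p = 0.150) and Rspo3, an enhancer of Wnt signalling, at 0.12 (edgeR adjusted p = 0.481).

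Of 20 pan-endothelial genes, 7 rose and 0 fell, with a median of 0.35. The largest were Ecscr at 1.12, Sox7 at 0.80, Cdh5 (VE-cadherin, the adherens junction cadherin of endothelium) at 0.77 and Tek (the angiopoietin receptor Tie2) at 0.61 on the log2 scale. Cdh5 averaged 20.9 CPM in controls (SD 2.59, n = 6) and 35.7 CPM in KO (SD 9.51, n = 4), with all KO livers above all controls (adjusted p = 0.00162, edgeR). Among 15 tested genes of VEGF, angiopoietin and Notch signalling, Angpt2, the vessel-destabilising ligand of Tie2, rose by a log2 fold change of 2.38 (adjusted p = 9.37e-04, edgeR). Vegfb fell by 0.60 (edgeR adjusted p = 0.0158), and the other 13 did not pass. With library size only, Angpt2, Nrp1 and Vegfc were called higher and none lower. Vegfb was then at -0.44 (adjusted p = 0.088), and it also missed the threshold with the FPKM values and with the replicate block.

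Genes of continuous vessels and basement membrane stood higher. Of 14 such genes, 10 rose and 0 fell, with a median log2 fold change of 1.00. Icam1, a leukocyte adhesion molecule, averaged 8.99 CPM in controls (SD 3.16, n = 6) and 47.4 CPM in KO (SD 18.8, n = 4) and rose by a log2 fold change of 2.40 (adjusted p = 3.10e-04, edgeR). Vcam1 rose by 1.98 (edgeR adjusted p = 0.0250), although MCS control 3 at 33 CPM was above KO 1 at 16.2 CPM, and Col4a1, a basement membrane collagen, rose by 1.39 (edgeR adjusted p = 0.00305). Sele had 0 to 3 counts per control liver and 4 to 15 per KO liver, too few for a fold change, and the median was 0.98 without it. Chosen after their values were seen, the 4 genes that did not pass were Selp, Edn1, Gja5 and Cav1, at -0.28 to -0.06. Several of the genes that rose, such as Icam1, Vcam1, Ly6a and the collagens, are also expressed by leukocytes, macrophages or stellate cells. No test compared one list with another, and the endothelial lists overlap in function. The plot of log2 fold changes by list shows them together.

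**Figure D3:**
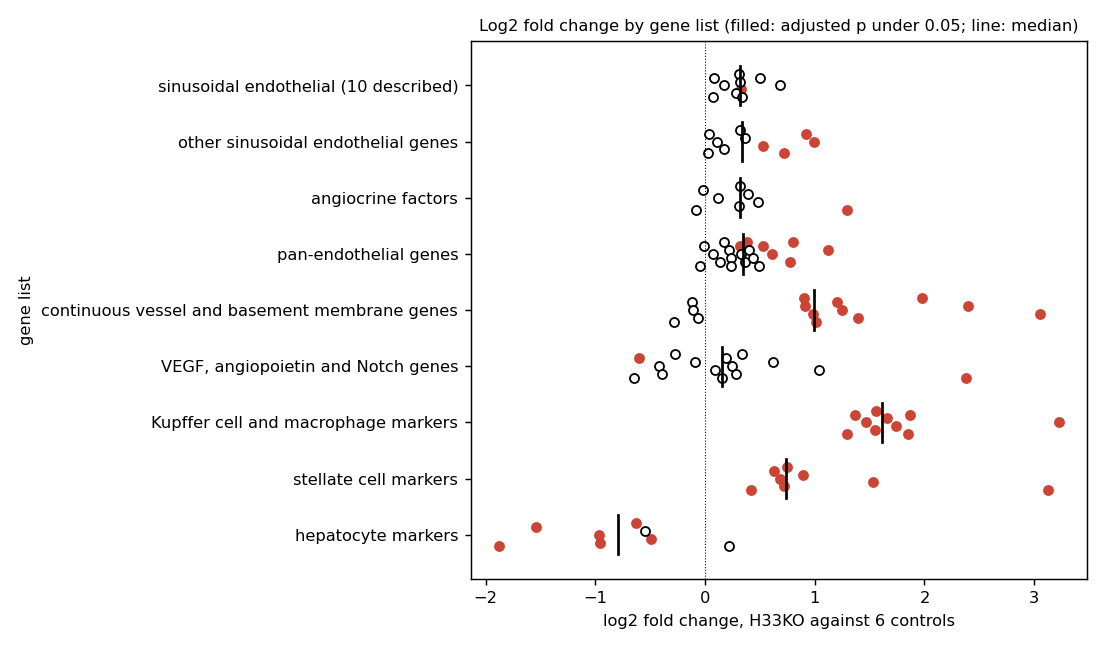
Log2 fold change of H33KO against the 6 controls (x axis) for each gene tested, by list (y axis). Filled points had an adjusted p under 0.05, open points did not, and vertical lines are medians, at 0.32 for the 10 genes described, 1.00 for continuous vessel and basement membrane genes and 1.61 for macrophage markers.

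Markers of other cell types moved in the same livers. All 10 Kupffer cell and macrophage markers rose, and their summed level was 231 to 442 CPM in the controls and 532 to 1180 CPM in KO. By liver, KO 1 had the lowest sum of the KO group and KO 4 the highest, as for the endothelial set, and MCS control 3 the highest of the controls. The activating Fc gamma receptor genes Fcgr1, Fcgr3 and Fcgr4 rose, as did Fcer1g, which encodes the signalling chain they share with the IgE receptor. These 4 genes went from a sum of 17.4 to 40.7 CPM to one of 39.6 to 93.2 CPM. All 8 stellate cell markers rose, from 237 to 314 CPM to 427 to 608 CPM, and 6 of 8 hepatocyte markers fell, from 103000 to 147000 CPM to 76600 to 90000 CPM. B cell markers rose in 2 of 6 cases (0.950 to 6.85 CPM in controls, 4.63 to 12.0 CPM in KO), beside 19.7% of all genes tested. Platelet markers were called in 0 of 5 cases by edgeR. At an unadjusted p under 0.05 there were 2 of 5, with no share of all genes computed. Platelet sums overlapped at 4.02 to 5.40 CPM in controls and 4.59 to 5.61 CPM in KO. Of 4 lymphatic markers tested, Prox1, which hepatocytes also express, rose, and the lymphatic chemokine gene Ccl21a had 0 counts in all 10 livers. The part of these cells in the levels of Stab1, Fcgr2b, Lyve1, Pecam1, Mrc1, Cdh5 and the other endothelial genes was not tested. Without KO 4, the macrophage count was still 10 of 10, the stellate count 6 of 8 and the continuous vessel count 7 of 14. The further sinusoidal endothelial genes had 3 of 10 higher without KO 4 and the pan-endothelial genes 5 of 20. The median log2 fold change was 0.27 in each of these 2 lists. Angiocrine factors had 1 of 8 higher, with a median of 0.13. In that fit 17.2% of all genes tested rose.

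**Figure D4:**
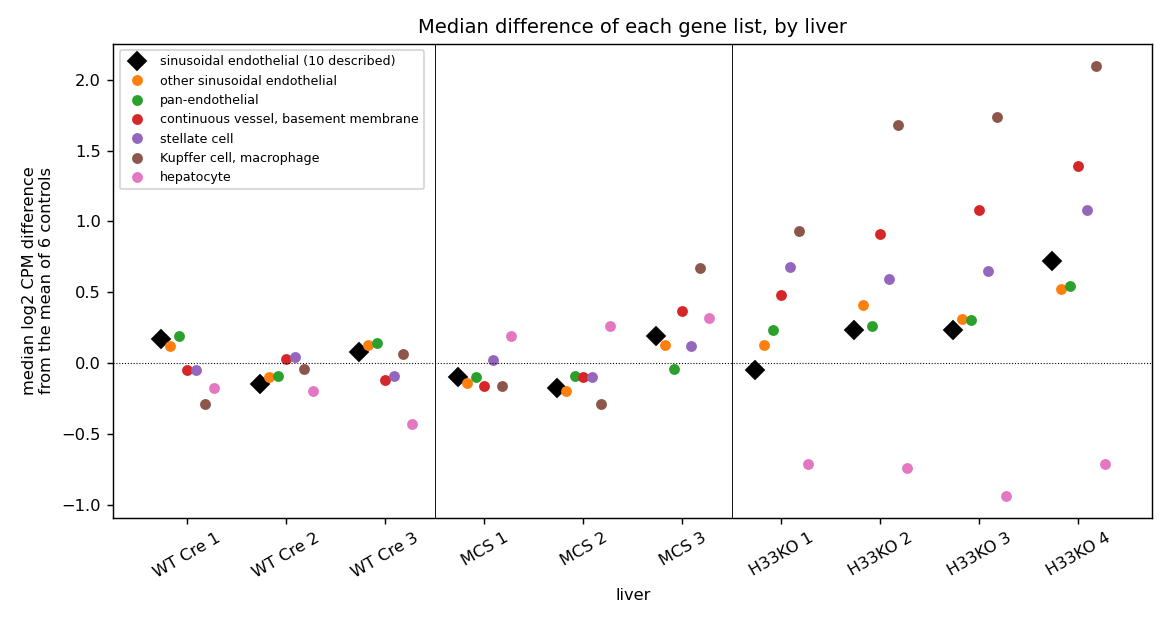
Median log2 CPM difference from the mean of the 6 controls (y axis) for 7 gene lists in each of the 10 livers (x axis). The black diamonds, the 10 genes described, stay between -0.18 and 0.23 in all livers but KO 4 at 0.72, whereas macrophage markers reach 0.93 to 2.10 in the KO livers.

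Over the 10 livers, the gene most like the mean profile of the set was Bmp2, with a root mean square difference of 0.0823 on the log2 scale among 13200 genes with a mean of at least 1 CPM. It was followed by Sh3d19, Dhx15, Nup50 and Nipa2, at 0.0863 to 0.0920. Within the set, Stab1 (0.0709) and Gpr182 (0.0832) lay closest to that mean, and Lyve1 (0.358) and Vwf (0.217) farthest. These distances share the same 10 libraries and are a description.

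Promoters were searched for short strings taken for ETS and GATA factors, as set in the plan. RefSeq windows of 300 bases (GRCm38.p6, 250 before to 50 after the start) were at hand for Stab1, Stab2, Clec4g, Fcgr2b and Kdr. The exact string AGGAAG, taken for ETS factors and read on both strands, occurred in 3 of 5 (Stab1, Stab2 and Clec4g). It occurred in 35.1% of 32544 promoters. The exact string AGATAA, taken for GATA factors, occurred in 0 of 5 and in 11.2% of all. Other forms of either motif were not searched. The 250 bases before the start are shown for Stab1 (chr14:31168642-31168891, minus strand) and Clec4g (chr8:3720652-3720901, minus strand), which hold 1 and 3 matches, in capitals. In Clec4g, 2 of the matches overlap.
Stab1: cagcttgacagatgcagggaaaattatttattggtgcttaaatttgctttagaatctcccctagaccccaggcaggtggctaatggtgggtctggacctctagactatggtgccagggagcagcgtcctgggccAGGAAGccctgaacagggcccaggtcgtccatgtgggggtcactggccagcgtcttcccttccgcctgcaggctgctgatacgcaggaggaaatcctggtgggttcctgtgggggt
Clec4g: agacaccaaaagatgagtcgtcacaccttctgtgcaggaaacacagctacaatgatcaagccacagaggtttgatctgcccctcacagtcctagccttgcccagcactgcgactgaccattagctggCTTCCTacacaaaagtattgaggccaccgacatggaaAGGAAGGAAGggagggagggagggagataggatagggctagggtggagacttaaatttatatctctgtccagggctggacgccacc
A match describes the letters only, and these data do not show binding.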

How the data were processed

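Poly(A) libraries of 10 livers were compared. The authors trimmed reads with Trim Galore, aligned them with STAR to mm10 and deposited whole-number counts per gene, made with HOMER according to the methods, although the submitters' processing notes name STAR, HTSeq and Cufflinks with no role for each. FPKM values were also deposited by the authors and served only as an alternative. Control columns 1 to 3 and 4 to 6 were matched to WT Cre and MCS controls by the numbers in the library names, and every value for one kind of control rests on that match. Depth was 14998426 to 26096141 counts, and replicate counts differed by far more than sampling noise.

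Genes with at least 10 counts in total were kept (22449 of the 33924 genes that had counts). Calls rest on the two-sided quasi-likelihood test of edgeR 4.0.16 (R 4.3.3) with TMM normalization and no covariate, adjusted by Benjamini-Hochberg over all genes tested. A call needed an adjusted p under 0.05, and SE and 95% confidence intervals come from the same fit. KO was compared with the 6 controls in a fit of 2 groups, and with each kind of control in a fit of 3 groups. Log2 levels per liver used a prior count of 2. Alternatives were RLE factors, library size only, filterByExpr, no filter, DESeq2 1.42.0, limma 3.58.1 (voom, and log2 FPKM with pseudocounts of 1 and 0.1), a replicate block and leaving out each liver. The code was tested on simulated data.

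The 10 genes and all lists were chosen with earlier results of these data known. All 10 genes are named. Of each other endothelial list, at most 4 called genes with the largest absolute log2 fold change are named, or, where under 2 were called, also the 2 most abundant. Likeness and motifs followed the same plan, whereas the comparison of Fcgr2b and Fcgr3 sequence was added after the values were seen.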

Additional observations from a re-analysis of the deposited data

Results flagged for a closer look

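Among 46 groups of livers examined (10 genes and 13 summed lists, each in the 4 KO livers and in the 6 controls), 5 held a liver far from the others by Dixon's criterion, which chance alone meets in about 1 of 20 groups. Pecam1 in KO 4 was at 42.8 CPM, while the other KO livers were at 22.3 to 23.7 CPM. Pecam1 in MCS control 3 was at 27.1 CPM, above the other controls at 16.7 to 20.3 CPM. The same control was highest for the summed continuous vessel and basement membrane genes at 201 CPM, for the summed Kupffer cell and macrophage markers at 442 CPM and for the sum of Fcgr1, Fcgr3, Fcgr4 and Fcer1g at 40.7 CPM.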

How the results depend on the processing

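Against the 6 controls, 4 of 190 alternative log2 fold changes turned below 0, whereas the number of genes called was not stable. There, 1 gene was called in the main test, 6 with library size only, 2 with either FPKM scale, 0 with voom and 0 with the replicate block. Of all genes tested, 19.7% rose in the main test and 25.1% with library size only. The share was 21.1% and 21.0% on the FPKM scales, 19.6% with voom and 15.8% with the replicate block. Leaving out single livers gave 0 to 6, with 6 without KO 1, 2 without MCS control 3, and 0 without WT Cre control 2, MCS control 1 or 2, or KO 2, 3 or 4. Of all genes tested, 22.0% rose without KO 1 and 19.5% without MCS control 3. Against the MCS controls the count was 6 with library size only, 2 with either FPKM scale and 0 to 4 without single livers (4 without KO 1, 0 without MCS control 1 or 2). In that comparison 24.9% of all genes tested rose with library size only, and 20.8% and 21.6% on the FPKM scales. The share was 20.9% without KO 1, 12.7% without MCS control 1 and 12.3% without MCS control 2. Against the WT Cre controls the count was 0 in every setting, DESeq2 and voom included, except 3 without KO 1 (range 0 to 3). In the fit without KO 1, 19.5% of all genes tested rose against the WT Cre controls. Between the controls the count was 0 in all settings. The causes were not tested.

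Replicate numbers did not pair the livers: correlations of same-numbered livers ran from -0.122 to 0.203, and MCS control 3 correlated best with KO 4 (0.325). KO 4 has no partner, so the replicate block removes it. Under the replicate block, log2 fold changes against the 6 controls turned to -0.13 for Oit3 and -0.03 for Vwf, against the WT Cre controls to -0.01 for Clec4g, -0.13 for Oit3, -0.02 for Gpr182 and -0.11 for Vwf, and against the MCS controls to -0.13 for Oit3. Voom gave -0.0031 for Vwf against the WT Cre controls.

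Without single livers, the ranges that crossed 0 were -0.14 to 0.18 for Oit3 and -0.04 to 0.16 for Vwf against the 6 controls. Against the WT Cre controls they were -0.02 to 0.23 for Clec4g, -0.14 to 0.19 for Oit3, -0.02 to 0.35 for Gpr182 and -0.12 to 0.10 for Vwf, and against the MCS controls -0.14 to 0.24 for Oit3. Between WT Cre and MCS controls they were -0.09 to 0.08 for Stab1, -0.06 to 0.11 for Stab2, -0.47 to 0.10 for Lyve1, -0.04 to 0.17 for Clec4g, -0.12 to 0.16 for Oit3, -0.0043 to 0.29 for Gpr182 and -0.26 to 0.11 for Pecam1. In that comparison Oit3 also turned to 0.13 with library size only, 0.0012 with no filter, 0.01 with voom and 0.13 or 0.14 on the FPKM scales, Pecam1 to 0.02 with library size only and 0.05 or 0.06 on the FPKM scales, and Vwf to -0.03 or -0.06 on the FPKM scales.

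Alternatives for the other lists were chosen after seeing the data. Angiocrine factors had 4 calls with library size only and 1 to 3 without KO 1, KO 4 or MCS control 3, B cell markers 1 to 3, and platelet markers 1 with library size only. Of all genes tested, 25.1% rose with library size only. The share was 22.0% without KO 1, 17.2% without KO 4 and 19.5% without MCS control 3. The VEGF, angiopoietin and Notch list had 1 higher and 1 lower call in the main test and 3 higher and 0 lower with library size only. Vegfb was at -0.37 and -0.39 on the FPKM scales (adjusted p = 0.146 for both) and at -0.48 with the replicate block (adjusted p = 0.0525).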
